A study of Mus musculus with 6 samples.

Results

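The 10 genes described here, Meg3, Dlk1, Peg3, Mest, Plagl1, Ndn, Snrpn, Nnat, Grb10 and Igf2, are imprinted genes known from the embryonic brain. They were chosen by name, and every probe set that the platform annotation assigned to 1 of these symbols alone was taken. That gave 37 probe sets of 45037 on the array, for 10 genes of 18193. The RNA came from Atoh1-lineage cells of rhombomere 1 and the isthmus of Swiss Webster mouse embryos, sorted at E14.5. All embryos carried Atoh1-CreER, a tamoxifen-dependent Cre recombinase driven by Atoh1, and the RCE EGFP reporter. Pregnant dams received tamoxifen by mouth, 4 mg per 35 g of body weight. E10-labelled cells came from embryos whose dams were dosed at E10.5, and E13-labelled cells from embryos whose dams were dosed at E13.5. Cells with EGFP were sorted at the same age in both groups, so the day of labelling and the time since labelling differed together. Each group held 3 samples, each on 1 Affymetrix array, and this small number limits the precision. Whether the samples are from different litters is not stated in the labels; a p-value here reflects the spread among 3 arrays a group and may be technical. E10 replicate 3 stood apart in the X-linked noncoding RNA Xist, at 166 units where the other 5 arrays read 8141 to 19797 units, and E13 replicate 3 in the Y-linked gene Eif2s3y, at 14.1 units where the others read 826 to 1772 units. Without both arrays, which leaves 2 a group, 31 of 54 log2 differences of member probe sets and named genes lost their call. The 54 include 6 member probe sets that had no call to lose. Lost were the calls of Rian, Mirg, Cdkn1c and the brightest probe sets of Meg3, Dlk1, Ndn, Mest and Plagl1 among others, while that of Grb10 held.

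An imprinted gene is expressed mainly from the copy inherited from 1 parent, because DNA methylation laid down in egg or sperm marks the copies differently. Imprinted genes lie in clusters that share a control region, and many of them regulate growth, the supply of nutrients and the timing of cell cycle exit. Peg3, Mest, Plagl1, Ndn, Snrpn, Nnat, Dlk1 and Igf2 are known as paternally expressed genes, and Meg3 as a maternally expressed noncoding RNA. Grb10 is known as maternally expressed in most tissues and paternally expressed in neurons. The arrays measured the RNA of both parental copies together, so nothing here bears on which copy was used. In sorted samples, fewer cells expressing a gene and less of its RNA per cell cannot be told apart.

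The promoters of 4 genes that differed between the groups are shown because their RefSeq windows hold the letters TGCCGC, which the imprint-protecting zinc finger protein ZFP57 binds when methylated. Windows run from 250 bases before to 50 bases after an annotated start (GRCm38.p6), 5′ to 3′ on the strand of the gene, and capitals mark each match, which in these 4 windows lies on the opposite strand and reads GCGGCA.
Meg3 promoter, chr12:109540746-109541045, plus strand: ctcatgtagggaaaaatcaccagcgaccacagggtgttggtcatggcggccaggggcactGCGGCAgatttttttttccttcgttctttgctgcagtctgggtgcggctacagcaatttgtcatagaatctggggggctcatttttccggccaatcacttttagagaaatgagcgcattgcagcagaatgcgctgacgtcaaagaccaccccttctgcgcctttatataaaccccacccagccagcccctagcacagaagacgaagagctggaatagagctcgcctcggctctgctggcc
Grb10 promoter, chr11:12037371-12037670, minus strand: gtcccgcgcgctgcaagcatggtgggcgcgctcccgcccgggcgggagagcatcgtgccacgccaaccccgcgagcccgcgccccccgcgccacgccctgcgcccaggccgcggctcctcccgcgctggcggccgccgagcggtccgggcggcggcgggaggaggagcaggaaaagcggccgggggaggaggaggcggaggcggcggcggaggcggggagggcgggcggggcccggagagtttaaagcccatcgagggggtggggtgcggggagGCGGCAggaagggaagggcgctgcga
Mest promoter, chr6:30737800-30738099, plus strand: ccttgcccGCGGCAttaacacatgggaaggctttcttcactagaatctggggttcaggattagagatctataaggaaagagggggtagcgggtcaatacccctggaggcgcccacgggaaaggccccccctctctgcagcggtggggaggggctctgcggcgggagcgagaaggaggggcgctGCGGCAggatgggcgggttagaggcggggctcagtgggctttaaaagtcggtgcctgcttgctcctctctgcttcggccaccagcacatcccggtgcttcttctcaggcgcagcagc
Plagl1 promoter, chr10:13090582-13090881, plus strand: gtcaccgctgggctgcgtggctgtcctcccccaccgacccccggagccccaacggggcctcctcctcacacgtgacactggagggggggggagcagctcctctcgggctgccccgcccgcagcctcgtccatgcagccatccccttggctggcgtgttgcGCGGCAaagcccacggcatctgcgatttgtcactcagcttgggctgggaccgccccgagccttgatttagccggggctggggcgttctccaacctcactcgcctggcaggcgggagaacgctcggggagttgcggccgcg

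These windows differ widely in CpG content, the dinucleotide that carries the methylation mark. The Grb10 window holds 45 CpG dinucleotides, the Plagl1 window 26, the Mest window 17 and the Meg3 window 13, where the median over all 32851 windows of the table is 7. Of all windows, 63.7% hold at most 13 and 70.3% at most 17. The windows shown were picked for TGCCGC, which itself holds a CpG. Another window holds 9 for Grb10, 8 for Mest and 1 for Meg3. Searched on both strands, TGCCGC occurs in 8 of the 20 windows of the members, which belong to 7 of the 10 genes, and in 11.6% of all windows. Several windows of 1 gene can overlap, as 2 of Mest do. GGGGCCCC, letters of the site bound by the PLAGL1 protein itself, occurs in 1 window of the members, that of Peg3, and in 1.08% of all windows. These matches describe the letters only, and no measurement here bears on binding or methylation.

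The comparison asked how cells that expressed Atoh1 early differed from cells that expressed it late, at 1 common age. Signals are MAS5 intensities that the authors scaled to the same trimmed mean on every array, and they were compared as log2 values with limma, E10-labelled minus E13-labelled. A probe set was tested if it exceeded the median of its array on at least 3 of the 6 arrays, and it was called at a Benjamini-Hochberg adjusted p under 0.05 over all 23491 tested probe sets. Of the 37 probe sets of the members, 28 were tested and 8 lay at or below the median on all 6 arrays. Of the 28, 19 were called higher in E10-labelled cells, 3 were called higher in E13-labelled cells and 6 were not called, where 25.9% of all tested probe sets were called (13.4% higher in E10-labelled cells and 12.5% higher in E13-labelled cells). Because 11 of the 28 probe sets measure Meg3 and 5 measure Ndn, these counts are not counts of genes. The 19 include 3 probe sets, both of Dlk1 and the dimmest of Meg3, that passed the filter through the E10-labelled arrays alone and so had to differ. With each gene read from its brightest probe set, Meg3, Dlk1 and Ndn were higher in E10-labelled cells and Grb10, Mest and Plagl1 were higher in E13-labelled cells. That is 3 of 10 genes in each direction, where 16.2% of the 11071 tested genes were called higher in E10-labelled cells and 13.9% higher in E13-labelled cells. Dlk1 passed the filter only through the group where it is high, so nothing is read from this count, which leaves 2 genes higher in E10-labelled cells without it. Nnat, Peg3, Igf2 and Snrpn were not called. Snrpn was read from a dim probe set. The 5 tested probe sets annotated to Snurf and Snrpn together, all called higher in E10-labelled cells, are described below. The median log2 difference was 0.77 over the 10 members and -0.03 over all tested genes. The 0.77 includes Dlk1 and lies between the values of Snrpn (0.65) and Igf2 (0.90), neither of which was called, so nothing is read from it. Signals of the groups did not overlap for 24 of the 28 tested probe sets, where the share over all tested probe sets was 46.9%. The 24 hold 11 probe sets of Meg3 and 5 of Ndn, and the 3 that passed the filter through the E10-labelled arrays alone. The calls of Meg3 and Grb10 held whichever 1 array was left out, while those of Dlk1, Ndn, Mest and Plagl1 did not at the brightest probe set. In all, 1 member remained called higher in E10-labelled cells without E13 replicate 1 or 3, and 1 remained called higher in E13-labelled cells without E13 replicate 3.

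**Figure D1:**
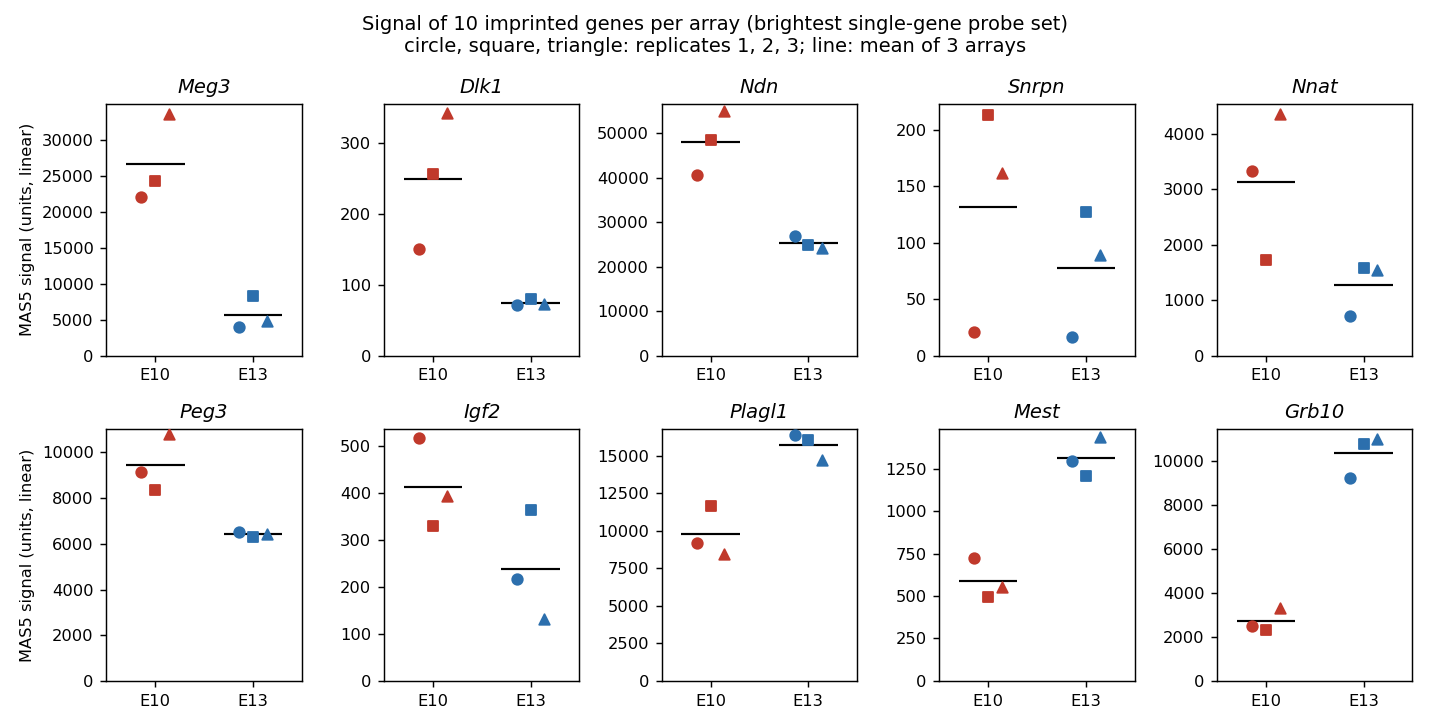
Signal of each gene at its brightest probe set, with 1 panel per gene, MAS5 units on a linear axis that starts at 0, E10-labelled arrays on the left, E13-labelled arrays on the right and a line at the mean of 3 arrays. Meg3, Dlk1 and Ndn lie higher in E10-labelled cells, Grb10, Mest and Plagl1 lie higher in E13-labelled cells, and the points of Igf2 and Snrpn overlap between the groups.

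Meg3 had the largest log2 difference among the brightest probe sets of the 10 genes. It is a long noncoding RNA of the Dlk1-Dio3 cluster, kept largely in the nucleus. Its brightest probe set, 1439380_x_at, read 21964, 24233 and 33505 units in E10-labelled cells, against 3978, 8284 and 4782 units in E13-labelled cells. All 3 E10-labelled arrays lay above all 3 E13-labelled arrays. The mean was 26567 ± 6114 units in E10-labelled and 5681 ± 2289 units in E13-labelled cells (SD, n = 3 arrays each), a log2 difference of 2.27 ± 0.33 (SE), or 4.84-fold (limma, Benjamini-Hochberg adjusted p = 0.00580). Its other 10 probe sets gave the same direction and were called too. Over all 11, adjusted p ran from 0.00131 to 0.0105 in limma. Apart from the dimmest probe set, the fold ran from 4.79 to 16.3. The probe set 1452905_at read 17492, 18306 and 26514 units in E10-labelled cells, against 1917, 4115 and 1649 units in E13-labelled cells, a log2 difference of 3.12 ± 0.39. The probe set 1429256_at read 4695, 4719 and 5772 units in E10-labelled cells, against 255, 486 and 236 units in E13-labelled cells, a log2 difference of 4.03 ± 0.32. Folds therefore differed between probe sets of the same RNA, with the direction shared. The dimmest, 1436713_s_at, read 301, 290 and 243 units in E10-labelled cells and at most 13.1 units in E13-labelled cells, where it stayed below the array median on every array. It gives only a bound, at least 2.70-fold higher in E10-labelled cells when signals are raised to the array median. It passed the filter through the E10-labelled arrays alone and so had to differ. The 11 probe sets share the same RNA samples and are not replicates.

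**Figure D2:**
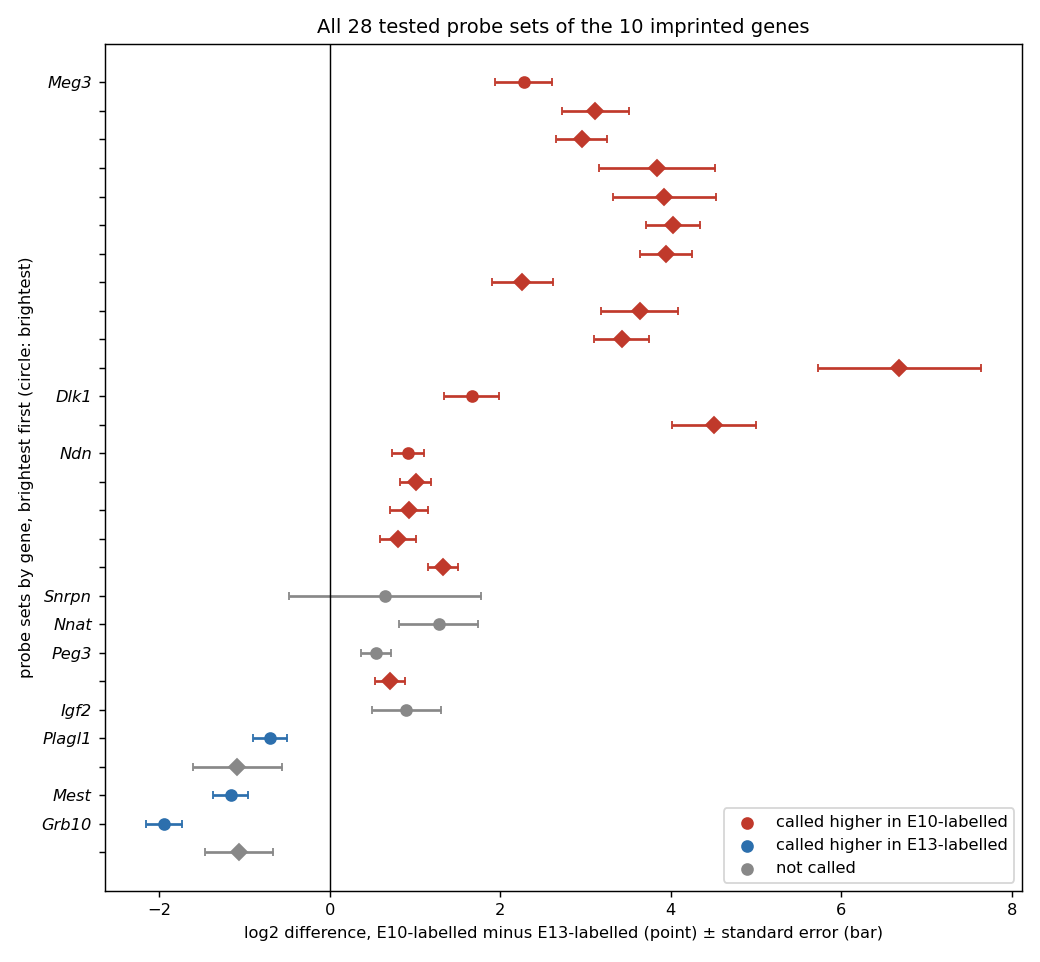
Log2 difference, E10-labelled minus E13-labelled, of the 28 tested probe sets, grouped by gene, with bars of 1 standard error from limma. Red marks calls higher in E10-labelled cells, blue calls higher in E13-labelled cells and grey no call, and all 11 Meg3 probe sets lie right of 2.26 or on it.

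Within the groups, Meg3 varied between arrays in a repeated way. E13 replicate 2 was the highest of the E13-labelled arrays at 10 of the 11 probe sets, and the highest array read 1.90 to 5.34 times the lowest, leaving out the dimmest probe set. Over all tested probe sets the median of that ratio was 1.32 among E13-labelled arrays, and E13 replicate 2 was the highest of its group at 35.4% of them. E10 replicate 3 was the highest E10-labelled array at 9 of the 11 Meg3 probe sets. The same arrays had the highest summed signal of blood vessel markers in their groups. The summed signal of 8 endothelial and pericyte markers was 1835, 691 and 2797 units in E10-labelled cells, against 575, 1906 and 320 units in E13-labelled cells. Cldn5 was the largest part on E10 replicate 3 and E13 replicate 2, at 1456 and 822 units. Of the 5 tested markers, E10 replicate 3 was the highest E10-labelled array for Cldn5, Kdr and Esam. E10 replicate 1 was the highest for Pdgfrb and Rgs5. E13 replicate 2 was the highest E13-labelled array for all 5. None of the 5 was called, where 30.1% of all tested genes were called, and 3 of the 8 lay at or below the array median on all arrays. E10 replicate 2, with 691 units of these markers, read 24233 units of Meg3, and E13 replicate 2, with 1906 units of these markers, read 8284. Without E13 replicate 2 the Meg3 difference of the brightest probe set was 2.58 on the log2 scale, the highest over the arrays left out in turn, and the lowest was 2.05. Without E10 replicate 3 and E13 replicate 3 together, it was 2.01 with a limma adjusted p of 0.0729. The part of vessel cells in the Meg3 signal was not tested.

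Dlk1 was higher in E10-labelled cells, at a low signal. It encodes a transmembrane protein related to the Notch ligands, known for restraining differentiation in several tissues, and lies in the same cluster as Meg3. The probe set 1449939_s_at read 150, 256 and 342 units in E10-labelled cells, against 70.6, 79.9 and 73.0 units in E13-labelled cells. The 3 E13-labelled values lay below the median of their arrays, so the fold is a bound, at least 2.30-fold higher in E10-labelled cells (limma adjusted p = 0.0140 for the fitted log2 difference of 1.67 ± 0.32). The other probe set, 1442724_at, read 149, 287 and 223 units in E10-labelled cells, against 9.96, 16.8 and 4.86 units in E13-labelled cells, at least 2.06-fold higher (limma adjusted p = 0.00257). Both passed the filter through the E10-labelled arrays alone. The call of 1449939_s_at was lost without E13 replicate 1 (limma adjusted p = 0.0574) or 3 (0.0578), and that of 1442724_at held in all 6 such fits. Dlk2, a relative of Dlk1 outside the imprinted clusters, was 3.30-fold higher in E10-labelled cells, at 447 ± 18.4 units in E10-labelled and 137 ± 23.4 units in E13-labelled cells (SD, n = 3 arrays each; limma adjusted p = 0.00277).

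Rian and Mirg are noncoding RNAs that follow Meg3 in the cluster. Rian, a long noncoding RNA that hosts small nucleolar RNAs, read 4156, 2552 and 5311 units in E10-labelled cells, against 312, 800 and 316 units in E13-labelled cells. The groups did not overlap, and E13 replicate 2 was again the highest E13-labelled array. The log2 difference was 3.16 ± 0.46, or 8.93-fold (limma adjusted p = 0.00588). Mirg, a host RNA of microRNAs, was named after its values were seen. It read 214, 320 and 265 units in E10-labelled cells and lay below the array median on all 3 E13-labelled arrays, at 76.5, 107 and 47.0 units, which makes it at least 2.56-fold higher (limma adjusted p = 0.0122 in the fit of unfloored signals). Mirg passed the filter through the E10-labelled arrays alone, so it had to differ and adds no support to Meg3 or Rian. Rtl1 and Dio3 of this cluster have no probe set of their own in the annotation used.

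**Figure D3:**
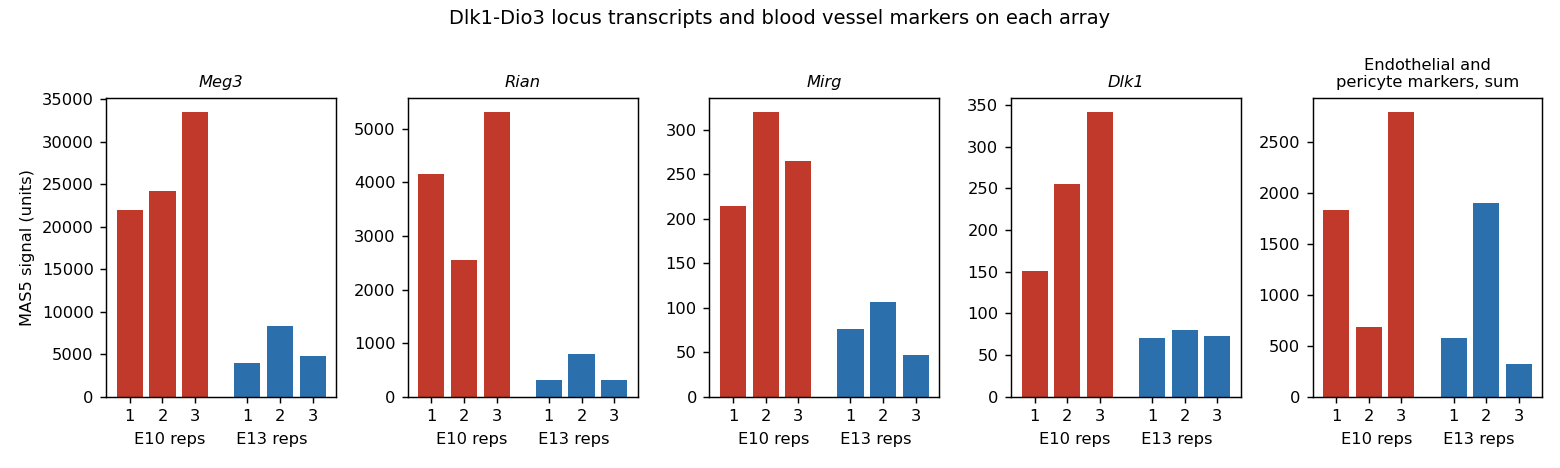
Signal on each array, in MAS5 units from 0, of Meg3, Rian, Mirg and Dlk1 at their brightest probe sets and of 8 endothelial and pericyte markers summed, with E10-labelled replicates on the left and E13-labelled replicates on the right. All E10-labelled bars exceed all E13-labelled bars for the 4 transcripts. Of these, Mirg and Dlk1 passed the filter through the E10-labelled arrays alone and so had to differ. The marker sums of the groups overlap.

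Ndn was higher in E10-labelled cells. It encodes necdin, a MAGE family protein of postmitotic neurons that restrains growth and cell death. The probe set 1455792_x_at read 40663, 48381 and 55061 units in E10-labelled cells, against 26961, 24909 and 24083 units in E13-labelled cells. The groups did not overlap, and the log2 difference was 0.91 ± 0.19 (limma adjusted p = 0.0180). Across its 5 tested probe sets the fold ran from 1.75 to 2.52, and all 5 were called (limma adjusted p from 0.00442 to 0.0376). The largest difference was at 1415923_at, which read 17868, 21636 and 18490 units in E10-labelled cells, against 8204, 7038 and 7774 units in E13-labelled cells, and its call held whichever 1 array was left out. The call of 1455792_x_at was lost without E13 replicate 1, 2 or 3 (limma adjusted p = 0.0584, 0.0713 and 0.0807), and without E13 replicate 3 only 1415923_at of the 5 stayed called. The other 3 Ndn probe sets lay at or below the array median on all arrays. Magel2, a MAGE family neighbour of Ndn named after its values were seen, averaged 451 ± 151 units in E10-labelled and 123 ± 57.6 units in E13-labelled cells (SD, n = 3 arrays each; 3.82-fold, limma adjusted p = 0.0238). That call was lost without E10 replicate 1 or 3 or E13 replicate 2 or 3 (limma adjusted p from 0.0587 to 0.0788). Of 9 relatives of the members outside the imprinted clusters 8 were tested, 2 were higher in E10-labelled cells, 1 was higher in E13-labelled cells and 5 were not called, where 16.2% and 13.9% of tested genes were called in these directions. Among its 5 MAGE genes, Magee1 was 3.45-fold higher in E10-labelled cells (limma adjusted p = 0.00318). The other 4 were not called, with log2 differences of 0.69 for Mageh1 (limma adjusted p = 0.0511), 0.48 for Maged1 (0.112), 0.39 for Maged2 (0.132) and -0.12 for Nsmce3 (0.820). Peg12, another neighbour of Ndn, was lower in E10-labelled cells. It read 180, 139 and 57.6 units in E10-labelled cells, against 488, 527 and 635 units in E13-labelled cells (4.84-fold, limma adjusted p = 0.0138, and 0.0587 without E13 replicate 3).

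Snrpn encodes SmN, a core protein of the spliceosome made in neurons. The only probe set assigned to Snrpn alone, 1432096_at, was dim and scattered, with 20.9, 213 and 162 units in E10-labelled cells, against 16.5, 127 and 89.4 units in E13-labelled cells. The groups overlapped, and the log2 difference of 0.65 ± 1.13 was not called (limma adjusted p = 0.705); without E13 replicate 1 it was -0.25. Another 6 probe sets are annotated to Snurf and Snrpn together. Because these genes share a transcript, the 6 can read Snrpn RNA, but they were left out of the counts of members. Of the 6, 5 were tested and all 5 were higher in E10-labelled cells, by log2 differences of 1.38 to 2.50 (limma adjusted p from 0.00370 to 0.0328). The highest of these p-values belongs to 1421063_s_at, which lay below the array median on all 3 E13-labelled arrays, passed the filter through the E10-labelled arrays alone and gives only a bound. Their brightest, 1415895_at, read 8128, 10202 and 9323 units in E10-labelled cells, against 3682, 3152 and 3817 units in E13-labelled cells. Snrpb, which encodes the closely related SmB made in most cells, was 1.71-fold lower in E10-labelled cells, at 7032 ± 650 units, against 12054 ± 1464 units in E13-labelled cells (SD, n = 3 arrays each; limma adjusted p = 0.0278). That call was lost without E10 replicate 1 or 3 or without any 1 E13 replicate (limma adjusted p from 0.0565 to 0.101), and at its brightest probe set with neither _x_at nor _s_at in its name (0.139).

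Nnat, Peg3 and Igf2 had higher means in E10-labelled cells and were not called at their brightest probe sets. Nnat encodes neuronatin, a small membrane protein of developing neurons. It read 3332, 1716 and 4357 units in E10-labelled cells, against 721, 1568 and 1546 units in E13-labelled cells. The groups did not overlap, though E10 replicate 2 lay close to the E13-labelled values, and the log2 difference was 1.28 ± 0.46 (limma adjusted p = 0.0916). Without E10 replicate 2 it was 1.66 and passed (limma adjusted p = 0.0397). Blcap, whose gene holds Nnat within an intron, was named after its values were seen and was 3.80-fold higher in E10-labelled cells, at 8022 ± 526 units in E10-labelled and 2114 ± 216 units in E13-labelled cells (SD, n = 3 arrays each; limma adjusted p = 0.00176).

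Peg3 encodes a large zinc finger protein linked to growth and cell death. Its brightest probe set, 1433924_at, read 9127, 8356 and 10798 units in E10-labelled cells, against 6533, 6315 and 6418 units in E13-labelled cells. The groups did not overlap, but the log2 difference of 0.55 ± 0.18 was not called (limma adjusted p = 0.0698). A second probe set, 1417355_at, read 3152, 3740 and 3573 units in E10-labelled cells, against 2044, 2355 and 2023 units in E13-labelled cells. It was called at 0.70 ± 0.18 (limma adjusted p = 0.0319), a call lost without E10 replicate 2 or 3 or without any 1 E13 replicate (limma adjusted p from 0.0571 to 0.126). The other 3 probe sets of Peg3 lay below the array median on all arrays. Usp29, the neighbour that shares a promoter region with Peg3, differed more, at 963, 753 and 852 units in E10-labelled cells, against 111, 144 and 197 units in E13-labelled cells (5.82-fold, limma adjusted p = 0.00224).

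Igf2, the growth factor ligand of the IGF system, read 516, 330 and 393 units in E10-labelled cells, against 217, 364 and 131 units in E13-labelled cells at probe set 1448152_at. E13 replicate 2 lay above E10 replicate 2, and the log2 difference of 0.90 ± 0.40 was not called (limma adjusted p = 0.155). The second Igf2 probe set lay below the array median on all arrays. Igf2 is abundant in meninges and vessels, and 9 markers of meninges and mesenchyme summed to 2776, 1288 and 1395 units in E10-labelled cells, against 1958, 2154 and 1717 units in E13-labelled cells. E10 replicate 1 was the highest E10-labelled array for both Igf2 and these markers, and E13 replicate 2 the highest E13-labelled array for both. Of the 9 markers, 3 lay at or below the median on all arrays. Postn, which passed the filter through the E10-labelled arrays alone, was called higher in E10-labelled cells and Fn1 higher in E13-labelled cells. Fn1 carried most of the E13-labelled sums, at 1527, 1524 and 1408 units, and read 877, 557 and 826 units in E10-labelled cells. The part of such cells in the Igf2 signal was not tested.

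Grb10, Mest and Plagl1 were higher in E13-labelled cells. Grb10 is an adaptor protein that binds the insulin and IGF receptors and dampens their signal. Its probe set 1425458_a_at read 2521, 2308 and 3341 units in E10-labelled cells, against 9235, 10802 and 11029 units in E13-labelled cells. All E10-labelled values lay well below all E13-labelled values, with means of 2723 ± 545 units in E10-labelled and 10355 ± 977 units in E13-labelled cells (SD, n = 3 arrays each). The log2 difference was -1.94 ± 0.21 (limma adjusted p = 0.00253), and it lay between -2.10 and -1.83 with any 1 array left out. A dimmer probe set, 1430164_a_at, had the same sign at -1.07 ± 0.40 and was not called (limma adjusted p = 0.0993). It passed without E10 replicate 1 (limma adjusted p = 0.0205). The remaining probe set was not tested. Cobl, the neighbour of Grb10, encodes an actin regulator. It read 472, 497 and 583 units in E10-labelled cells and lay below the array median on all 3 E13-labelled arrays, which makes it at least 5.01-fold higher in E10-labelled cells (limma adjusted p = 0.0157 for unfloored signals). Cobl too passed the filter through the E10-labelled arrays alone, which fixed its direction. That call was lost without E13 replicate 1 or 3 (limma adjusted p = 0.0507 and 0.0613).

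Mest encodes a protein of the hydrolase fold family linked to growth. Its single probe set read 723, 495 and 556 units in E10-labelled cells, against 1295, 1204 and 1436 units in E13-labelled cells. The groups did not overlap, and the log2 difference was -1.16 ± 0.21 (limma adjusted p = 0.0113). The call was lost without E13 replicate 3 (limma adjusted p = 0.0568). Copg2, the neighbour of Mest, read 1364, 1353 and 915 units in E10-labelled cells, against 1254, 1323 and 1169 units in E13-labelled cells, and was not called (limma adjusted p = 0.850).

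Plagl1 encodes a zinc finger transcription factor that arrests the cell cycle and is known to act on other imprinted genes. Its probe set 1426208_x_at read 9194, 11617 and 8426 units in E10-labelled cells, against 16366, 16013 and 14732 units in E13-labelled cells. The groups did not overlap, and the log2 difference of -0.70 ± 0.19 was called (limma adjusted p = 0.0437). The call was lost without E10 replicate 1 or 3, without any 1 E13 replicate (limma adjusted p from 0.0850 to 0.137 over these 5 fits) and with arrays centred on their medians (0.0593). The probe set 1438588_at had the same sign at -1.09 ± 0.52 and was not called (limma adjusted p = 0.178). Plagl2, a relative outside the imprinted clusters, read 202, 135 and 123 units in E10-labelled cells, against 238, 234 and 390 units in E13-labelled cells, and was not called (limma adjusted p = 0.0758).

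Imprinted genes next to the 10 members were compared in the same way. Of 34 listed neighbours, 30 had a probe set and 20 were tested. Of these, 7 were higher in E10-labelled cells, 1 was higher in E13-labelled cells and 12 were not called. Of all tested genes 30.1% were called, 16.2% higher in E10-labelled cells and 13.9% higher in E13-labelled cells. Besides Cobl, Rian, Usp29, Mirg, Magel2 and Blcap, the 7 held Cdkn1c, an inhibitor of cyclin-dependent kinases that lies beyond Igf2 in the same cluster region. It read 3845, 4916 and 4423 units in E10-labelled cells, against 611, 1151 and 1035 units in E13-labelled cells (4.86-fold, limma adjusted p = 0.00366). Without Cobl and Mirg, which passed the filter through 1 group alone, 5 neighbours were higher in E10-labelled cells. The list's median log2 difference was 0.53 with Cobl and Mirg included, so nothing is read from it. Of 30 imprinted genes elsewhere in the genome, 19 were tested, 6 were higher in E10-labelled cells and 3 in E13-labelled cells. Over all tested genes 16.2% and 13.9% were called in these directions. The median log2 difference of this list was 0.51. This median and the counts of 6 and 3 include Airn and Slc38a4, each of which passed the filter only through the group where it is high. Without them the counts are 5 and 2. Asb4, part of a ubiquitin ligase, read 1742, 1669 and 1130 units in E10-labelled cells, against 132, 83.9 and 146 units in E13-labelled cells (12.7-fold, limma adjusted p = 0.00141). Inpp5f, an inositol phosphatase, averaged 15448 ± 1131 units in E10-labelled and 3728 ± 168 units in E13-labelled cells (SD, n = 3 arrays each; 4.14-fold, limma adjusted p = 0.00141). Nap1l5, of the nucleosome assembly protein family, was 4.26-fold higher in E10-labelled cells, and Airn, the noncoding RNA antisense to Igf2r, was at least 2.40-fold higher. The call of Airn was lost without E13 replicate 3 (limma adjusted p = 0.0542).

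Of the 3 imprinted genes elsewhere that were higher in E13-labelled cells, Gab1, an adaptor of growth factor receptors, kept its call whichever 1 array was left out. It read 1046, 1000 and 751 units in E10-labelled cells, against 2832, 2879 and 3289 units in E13-labelled cells (3.24-fold, limma adjusted p = 0.00322). Commd1 and the amino acid transporter gene Slc38a4 were the other 2, at 1.87-fold and at least 1.63-fold. Commd1 lost its call without E10 replicate 1 or 3 or any 1 E13 replicate (limma adjusted p from 0.0613 to 0.110), and Slc38a4 without E10 replicate 2 or 3 or any 1 E13 replicate (0.102 to 0.133).

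**Figure D4:**
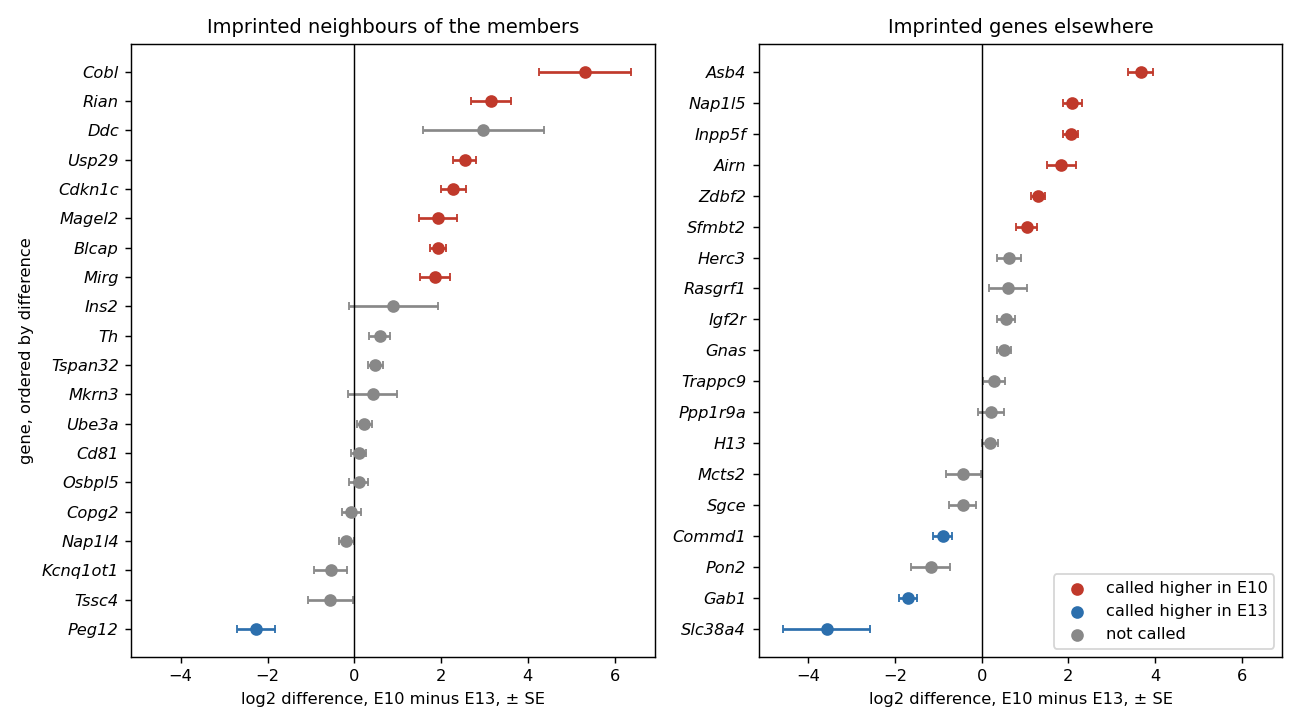
Log2 difference, E10-labelled minus E13-labelled, of 20 tested neighbours of the members (left) and 19 tested imprinted genes elsewhere (right), each at its brightest probe set with a bar of 1 standard error. In the left panel 7 genes are called higher in E10-labelled cells and 1 is called higher in E13-labelled cells, and in the right panel 6 and 3.

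Genes of the IGF and insulin system, in which Igf2 is a ligand and Grb10 an adaptor, moved in both directions. Of 18 listed genes 12 were tested, 2 were higher in E10-labelled cells and 5 in E13-labelled cells, where 16.2% and 13.9% of all tested genes were called in these directions, and the median log2 difference was -0.50. Igfbp2, an IGF-binding protein, read 947, 918 and 990 units in E10-labelled cells, against 5028, 4859 and 5994 units in E13-labelled cells (5.54-fold, limma adjusted p = 0.00115). Igfbp5 was 3.61-fold higher in E13-labelled cells, a call lost at its brightest probe set with neither _x_at nor _s_at in its name (log2 difference -0.78, limma adjusted p = 0.147). Igfbpl1 was 3.34-fold higher in E13-labelled cells, and Irs1, a docking protein of the receptors, 2.18-fold. Grb14, an adaptor of the same family as Grb10, read 926, 1701 and 1904 units in E10-labelled cells, against 57.6, 235 and 193 units in E13-labelled cells. Its log2 difference was 3.39 ± 0.59 (limma adjusted p = 0.010), of opposite sign to that of Grb10. Pik3r1, a regulatory subunit of the kinase downstream of the receptors, was 6.62-fold higher in E10-labelled cells.

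Marker genes moved with the same comparison. Beside the counts of called markers below, 16.2% of all tested genes were called higher in E10-labelled cells and 13.9% higher in E13-labelled cells. All 9 measured markers of cycling cells were lower in E10-labelled cells, with summed signals of 4786 to 5914 units in E10-labelled and 41498 to 43060 units in E13-labelled cells. Of 10 markers of postmitotic neurons 6 were higher in E10-labelled cells and none was higher in E13-labelled cells. Snap25, Nefm, Gap43 and Syt1 were not called. The sums of the 10 were 105546 to 112035 units in E10-labelled and 51112 to 58561 units in E13-labelled cells. All 10 Atoh1 lineage markers lay above the median on every array, but 8 of them were called, 3 higher in E10-labelled cells and 5 higher in E13-labelled cells. Atoh1 itself averaged 690 units in E10-labelled and 8642 units in E13-labelled cells, and Pax6 1254 units in E10-labelled and 8748 units in E13-labelled cells. Meis2 was 11.9-fold and Lhx9 10.8-fold higher in E10-labelled cells. For Actb, the 3′ over 5′ signal ratio of the array's own controls, which rises as RNA degrades, was 17.4 to 26.2 in E10-labelled and 12.9 to 16.1 in E13-labelled arrays. For Gapdh the ratios overlapped, at 10.6 to 13.2 in E10-labelled and 9.47 to 12.1 in E13-labelled arrays. Of the oligodendrocyte lineage markers, Olig1 and Olig2 were called higher in E10-labelled cells and Pdgfra higher in E13-labelled cells, and Sox10 was not called. Their sum, 2708 to 3143 units in E10-labelled and 864 to 1110 units in E13-labelled cells, was carried in E10-labelled cells by Olig1, with a mean of 2149 units there and 164 units in E13-labelled cells. Microglial markers summed to 513 to 1423 units in E10-labelled and 322 to 475 units in E13-labelled cells. Of these 7 markers 2 were tested, Csf1r, called higher in E10-labelled cells, and C1qb, not called. Csf1r averaged 510 units in E10-labelled and 136 units in E13-labelled cells. Sums of 6 radial glial and astrocyte markers were 8507 to 9768 units in E10-labelled and 4424 to 6687 units in E13-labelled cells, nearly all of it Fabp7, with means of 8432 units in E10-labelled and 4638 units in E13-labelled cells. In that list Fabp7 and Aldh1l1 (which passed the filter through the E10-labelled arrays alone) were called higher in E10-labelled cells and Slc1a3 higher in E13-labelled cells, and the median log2 difference was -0.02. Choroid plexus markers summed to at most 404 units except on E13 replicate 3 (1806 units), and erythroid markers to at most 441 units except on E10 replicate 3 (4769 units). These high sums were carried by Ttr, at 1547 units on E13 replicate 3, and by Hbb-y, at 4657 units on E10 replicate 3. The other markers of these lists read at most 111 and 67.0 units on those arrays. The part of these differences in the values of the imprinted genes was not tested.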

How the data were processed

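RNA of sorted cells was measured on 6 Affymetrix arrays, 3 per group, grouped by their titles. The authors deposited intensities from MAS5, as the submitters' processing notes name it, with 1 value for each probe set on an array. From the values, the authors had scaled each array to a mean of 500 units without the lowest and highest 2%, on a linear scale, so a change in total RNA per cell cannot be read. No source used here gives the MAS5 version, detection calls or pooling.

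Of 45101 probe sets, 64 controls were left out. The platform annotation gave 34958 probe sets 1 symbol, 932 several and 9211 none. A gene was represented by its 1-symbol probe set of highest mean log2 signal. Probe sets ending in _x_at or _s_at can hybridise with related transcripts. Log2 signals of probe sets above the 50th percentile on at least 3 arrays were compared with limma 3.58.1 (lmFit, eBayes) in R 4.3.3, two-sided, and the code was tested on simulated data. Signals raised to the array median gave bounds where 1 group lay below it on all arrays. Log2 differences carry limma's standard error.

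All 10 members are named, and in each other list the rule names up to 4 called genes per direction, or 2 genes where none was called. Mirg, Magel2, Blcap, genes that were not called and single markers fall outside it and were named after their values were seen. Members, lists and tests were chosen with earlier results of these data known. The alternatives tried were a replicate block, 2 other normalizations, an offset, other filters, a floor, other variance models, array weights, other representatives, a stricter threshold and leaving out arrays. Probe sets tested without an array were those of the full comparison. The promoters come from RefSeq (GRCm38.p6), where all 10 members matched.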

Additional observations from a re-analysis of the deposited data

How the results depend on the processing

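Of 54 log2 differences of member probe sets and named genes, 1 changed sign under any of the 19 alternatives, that of Snrpn 1432096_at (0.65 with all arrays, and -0.25 to 1.70 with 1 array left out, negative without E13 replicate 1). Quantile normalization, an offset of 5.97 units, the floor at the array median and array weights changed no call among them. The 3 members called higher in E10-labelled cells became 1 without a filter, 1 at an adjusted p of 0.01, 5 with an intensity trend and robust settings, and 0 without E10 replicate 3 and E13 replicate 3 together; leaving out 1 array gave 1 to 4. The 3 members called higher in E13-labelled cells became 1 without a filter, 1 at an adjusted p of 0.01 and 1 without both replicates 3, and 1 to 3 with 1 array left out. Of the neighbours, 7 higher in E10-labelled cells became 4 at 0.01 and 3 without both replicates 3, and the 1 higher in E13-labelled cells became 0 without a filter, 0 at 0.01, 2 when each gene's probe sets were averaged, and 0 to 1 with 1 array left out. Of imprinted genes elsewhere, 6 higher in E10-labelled cells became 3 without both replicates 3, and 3 higher in E13-labelled cells became 1 with the replicate block, 1 without a filter, 1 at 0.01, and 1 to 2 with 1 array left out. Over all probe sets, 6094 calls became 3590 with the block, 2719 without a filter, 2937 to 3338 without 1 E13-labelled array and 1481 without both replicates 3. The fits without arrays hold fewer samples, and the fit without a filter tests 45037 probe sets; other causes were not tested. Same-numbered arrays did not deviate together (r = -0.03, -0.07 and -0.01), so the numbers do not show a pairing; the block ended the calls at the brightest probe sets of Ndn (adjusted p = 0.0736) and Plagl1 (0.107). Signals below the array median limit Dlk1, Mirg, Airn, Cobl and Slc38a4 to bounds.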

Other observations

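Factors that keep imprints through cell division were measured on the same arrays. Of 13 listed, 10 were tested, 2 were lower in E10-labelled cells and 8 were not called, a share near the 13.9% of all tested genes called in that direction, and the list's median log2 difference was -0.42. Uhrf1, which brings the maintenance DNA methyltransferase to replicating DNA, read 365, 164 and 275 units in E10-labelled cells, against 1352, 1384 and 1537 units in E13-labelled cells (5.59-fold lower in E10-labelled cells, limma adjusted p = 0.00378). Ctcf, the insulator protein of the Igf2 cluster, read 2682, 2782 and 2431 units in E10-labelled cells, against 4522, 4407 and 4723 units in E13-labelled cells (limma adjusted p = 0.0180), a call lost without any 1 E13 replicate (adjusted p from 0.0670 to 0.0838). Zfp57, whose binding letters are marked in the promoters above, lay below the array median on all 6 arrays, at 6.71 to 14.4 units in E10-labelled and 6.25 to 39.5 units in E13-labelled cells. Trim28, its partner in silencing, was not called (limma adjusted p = 0.0892), with 9932 to 11182 units in E10-labelled and 13511 to 16454 units in E13-labelled cells.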
